A study of Homo sapiens with 16 samples.

Results

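The genes of fatty acid synthesis and desaturation were followed as a group: ACLY, ACSS2, ME1, ACACA, ACACB, FASN, ELOVL6, SCD, FADS1 and FADS2. They were listed by function and not picked by their measured values, though with earlier results of these data known. A row among the 18332 genes of the deposited table was found for 9 of the 10. ACACA, whose ID in the annotation used has no row there, was not analysed here. RNA sequencing covered 16 samples of 2 established human breast cancer cell lines labelled as estrogen receptor negative, MDA-MB-231 and MDA-MB-468. Each line spent 48 h at 5 mM glucose as the control (low glucose) or at 25 mM as a model of hyperglycemia (high glucose), which made 4 groups of 4 replicates. The comparison asked how hyperglycemia alters gene expression in breast cancer cells. Per the study's methods, the exposure medium held no serum in any group, and cells were first conditioned in low glucose. Routine culture used DMEM for MDA-MB-231 and RPMI for MDA-MB-468, so line and culture history cannot be told apart. The labels name no mannitol in the low-glucose medium, so glucose and osmolarity cannot be told apart in these expression values. The study reports that mannitol in the control medium of some experiments made no difference to proliferation or migration. Each group is a single line, and nothing in the labels says whether replicates came from separate cultures, so p-values measure the spread between these samples, which may be technical.

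Cells make fatty acids in the cytosol from acetyl-CoA, which ATP citrate lyase (ACLY) releases from citrate and acetyl-CoA synthetase ACSS2 makes from acetate. The acetyl-CoA carboxylases ACACA and ACACB turn it into malonyl-CoA, and fatty acid synthase (FASN) builds palmitate from malonyl-CoA and NADPH, part of which malic enzyme ME1 supplies. ELOVL6 lengthens palmitate, SCD places a double bond in saturated chains, and FADS1 and FADS2 desaturate polyunsaturated chains. In textbook accounts the SREBP factors, encoded by SREBF1 and SREBF2, and the glucose-responsive ChREBP, encoded by MLXIPL, drive transcription of many of these genes.

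RefSeq promoters, taken as the 250 bases before a single annotated start of each gene on GRCh38.p14, were matched for 9 of the 10 genes, ACACA included. FASN was not matched. Other starts of a gene were not searched, and the start used was not matched to the transcript that gives gene lengths below. Promoters are shown for 5 genes, and these include the 3 of the 9 in which the CCAAT box was found. Those of ELOVL6, ME1, ACACB and ACACA, where it was not found, are not shown. SCD (chr10:100346983-100347232, plus strand) and ACSS2 (chr20:34874739-34874988, plus strand) were higher in high glucose in MDA-MB-468, and ACLY (chr17:41919023-41919272, minus strand) did not pass the test there. FADS1 (chr11:61817004-61817253, minus strand) and FADS2 (chr11:61815953-61816202, plus strand) are neighbours on opposite strands, and they overlap at the starts used here. Both were far lower in MDA-MB-468 than in MDA-MB-231. Capitals mark the CCAAT box, searched on both strands as CCAAT or ATTGG.
SCD: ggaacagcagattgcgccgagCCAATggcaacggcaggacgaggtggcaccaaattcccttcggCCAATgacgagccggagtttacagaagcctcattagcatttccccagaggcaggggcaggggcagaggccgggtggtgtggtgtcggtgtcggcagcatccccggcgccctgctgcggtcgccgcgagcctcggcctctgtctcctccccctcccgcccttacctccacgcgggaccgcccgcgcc
ACSS2: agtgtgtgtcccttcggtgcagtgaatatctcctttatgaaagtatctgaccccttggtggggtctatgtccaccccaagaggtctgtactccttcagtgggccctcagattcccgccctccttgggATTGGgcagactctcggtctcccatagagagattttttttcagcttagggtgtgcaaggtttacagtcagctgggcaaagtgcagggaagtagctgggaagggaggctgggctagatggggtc
ACLY: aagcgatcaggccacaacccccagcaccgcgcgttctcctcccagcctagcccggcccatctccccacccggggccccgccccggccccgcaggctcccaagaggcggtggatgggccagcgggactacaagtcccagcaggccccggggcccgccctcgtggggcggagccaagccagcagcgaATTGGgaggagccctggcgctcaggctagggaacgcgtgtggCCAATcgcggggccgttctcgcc
FADS1: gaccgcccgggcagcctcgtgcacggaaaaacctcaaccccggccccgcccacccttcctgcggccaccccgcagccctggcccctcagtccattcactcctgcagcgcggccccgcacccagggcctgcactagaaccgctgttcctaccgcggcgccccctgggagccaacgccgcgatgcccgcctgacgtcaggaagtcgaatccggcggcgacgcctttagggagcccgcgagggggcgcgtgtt
FADS2: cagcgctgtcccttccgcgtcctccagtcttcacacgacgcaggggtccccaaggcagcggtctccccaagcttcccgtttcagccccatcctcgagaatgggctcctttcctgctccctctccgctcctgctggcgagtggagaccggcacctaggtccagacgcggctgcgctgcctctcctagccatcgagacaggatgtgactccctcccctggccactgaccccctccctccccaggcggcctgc
The CCAAT box was found in 3 of the 9 promoters and in 33.0% of all 27305 promoters of the same length. SCD held it at positions -229 and -186 from the start, ACSS2 at -123 and ACLY at -65 and -23. The Sp1 GC box (GGGCGG or CCGCCC) was in 7 of the 9 promoters and in 42.3% of all promoters. The sterol regulatory element, searched as TCACNCCAC on both strands, was in 0 of the 9 windows and in 0.875% of all promoters. The E-box CACGTG was in 0 of the 9 windows and in 6.49% of all promoters. These are letter matches within a short window before a single start of each gene, and say nothing of binding or of other starts.

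The deposited values are read counts divided by a size factor of each library, called normalized read counts here. The libraries held between 14094597 and 24425916 recovered reads, and a floor of 3 reads, for counting error only, was worth 0.123 to 0.213 CPM, that is, counts scaled to the library's total. The chi-square per gene of replicate pairs, about 1 for counting error alone, ran from 2.02 to 5.20. Pairs with replicate 4 of low-glucose MDA-MB-231 were at 4.96, 3.83 and 5.20, and the other pairs of that group at 2.13 to 2.66. The marker genes matched the labels: vimentin (VIM) averaged 96228 in low-glucose MDA-MB-231 and 21.5 in low-glucose MDA-MB-468, and E-cadherin (CDH1) averaged 5.51 and 2007. The estrogen receptor gene ESR1 had 0 to 3 reads per library in MDA-MB-231, and 35 to 67 in MDA-MB-468. The 9 genes together took 1.13% ± 0.0212 of the reads in low-glucose MDA-MB-231 and 1.11% ± 0.0204 in high glucose (SD, n = 4), with overlapping ranges. In MDA-MB-468 they took 0.720% ± 0.0120 in low and 0.850% ± 0.0120 in high glucose, and every high-glucose library lay above every low-glucose library. This sum mainly follows FASN and SCD, which held most of these reads. In MDA-MB-468, FASN took 0.208% to 0.235% in low and 0.290% to 0.318% in high glucose. SCD took 0.374% to 0.382% and 0.416% to 0.432%. In bulk samples such as these, fewer expressing cells and less RNA per cell cannot be told apart.

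**Figure D1:**
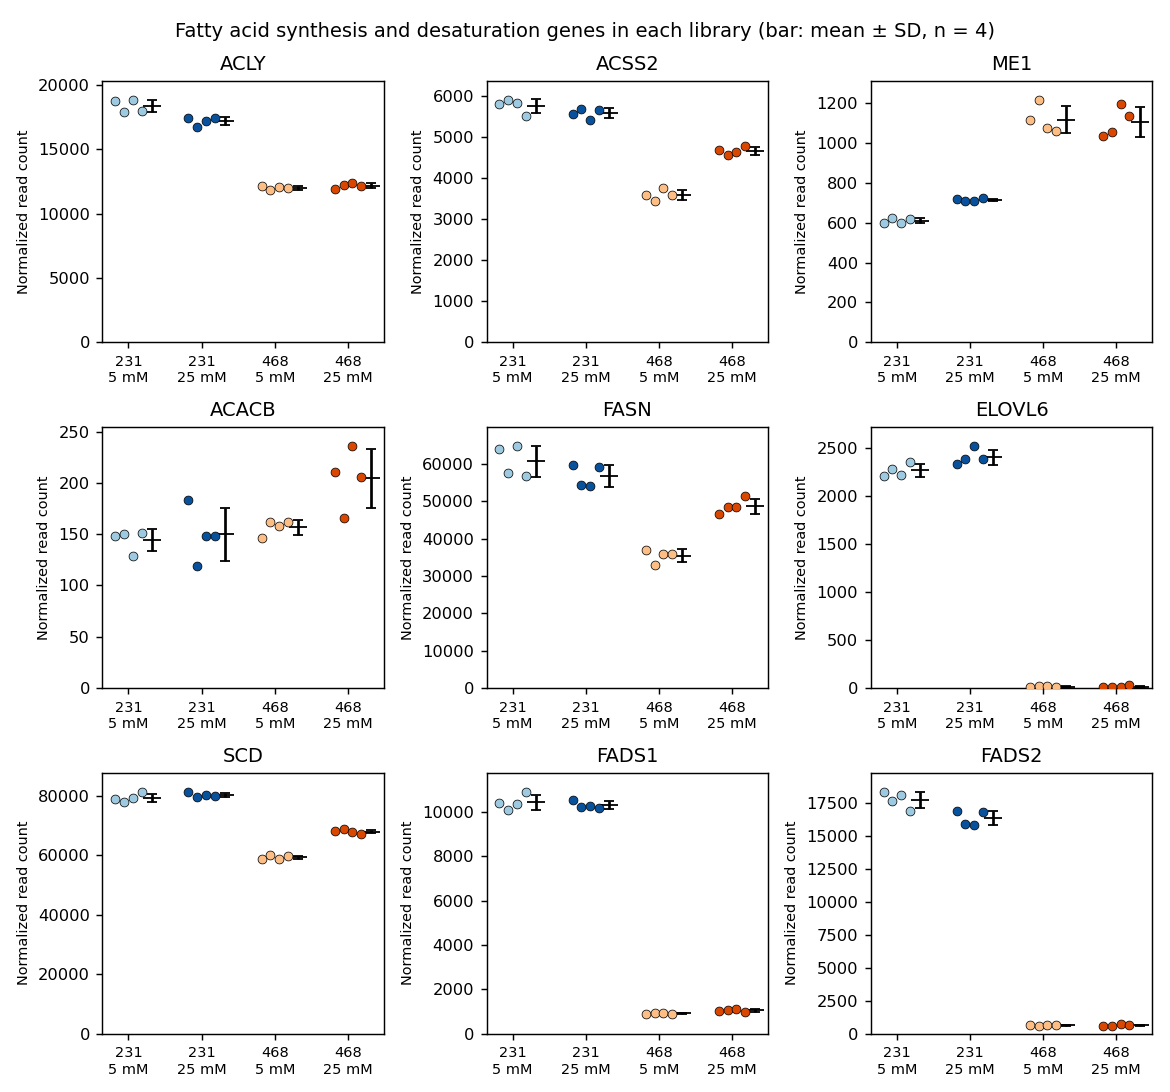
Normalized read count of each of the 9 genes in each library, with 1 panel per gene, each with its own axis from 0, and points for the 4 replicates of MDA-MB-231 (blue) and MDA-MB-468 (orange) at 5 and 25 mM glucose. The black mark and bar give the mean ± SD. FASN, ACSS2, ACACB, FADS1 and SCD separated by glucose in MDA-MB-468. Every gene but ACACB separated by line in low and in high glucose, with ELOVL6, FADS1 and FADS2 furthest apart.

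In MDA-MB-468, high glucose raised 5 of the 9 genes: FASN, ACSS2, ACACB, FADS1 and SCD. None of the 9 fell, and ACLY, ME1, ELOVL6 and FADS2 did not pass the test. The rises ran from 1.14-fold for SCD to 1.38-fold for FASN. limma on log2(value + 1) called 47.6% of the 15757 genes it tested in this line at an adjusted p under 0.05, 24.9% as higher and 22.7% as lower. The median log2 difference was 0.19 over the 9 genes and 0.00011 over all genes tested. High- and low-glucose values did not overlap for 5 of the 9 genes, against 42.5% of all genes tested.

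Among the genes that supply carbon and NADPH, ACSS2 read 3597, 3446, 3750 and 3583 normalized counts in low-glucose MDA-MB-468 and 4670, 4554, 4622 and 4780 in high glucose. All 4 high values exceeded all 4 low values. The ratio of means was 1.30 and the log2 difference 0.37 ± 0.032 (SE), with a limma adjusted p of 6.9e-08. ACLY, the main source of cytosolic acetyl-CoA, was at 12016 ± 145 in low and 12162 ± 195 in high glucose (SD, n = 4), and its values overlapped. Its log2 difference was 0.02 with a 95% interval of -0.04 to 0.07 (limma adjusted p = 0.60). ME1 averaged 1119 ± 68.8 and 1107 ± 73.6, with a log2 difference of -0.016 (95% interval -0.13 to 0.10). Of these 3 suppliers, then, ACSS2 alone passed the test in this line.

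ACACB, the acetyl-CoA carboxylase of the mitochondrial surface, was a low gene, with 146 to 244 reads per library in MDA-MB-468. Its normalized counts were 146, 161, 158 and 162 in low glucose and 211, 166, 236 and 206 in high glucose, a pair of ranges that did not overlap. The log2 difference was 0.37 ± 0.099 (SE), with a limma adjusted p of 0.0052. FASN, the synthase itself, read 37047, 32864, 35916 and 35975 in low glucose and 46516, 48589, 48505 and 51404 in high glucose. The lowest high-glucose library lay well above the highest low-glucose library. The log2 difference of 0.46 ± 0.037 (SE) was the largest of the 9 genes in this line (limma adjusted p = 3.9e-08), and 1591st from the highest among the genes tested.

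SCD, which makes monounsaturated chains, read 58823, 59873, 58819.8 and 59654 in low-glucose MDA-MB-468 and 68063, 68635, 67594 and 67202 in high glucose. The spread within each group was small beside the gap between them. Its log2 difference was 0.19 ± 0.024 (SE), with a limma adjusted p of 4.3e-06. FADS1 rose by a similar size, from 902, 921, 937 and 902 in low glucose to 1032, 1084, 1107 and 990.4 in high glucose, without overlap. Its log2 difference was 0.20 ± 0.043 (SE; limma adjusted p = 0.0010). FADS2, its neighbour, averaged 632 ± 45.2 in low and 651 ± 49.5 in high glucose, with a log2 difference of 0.04 (95% interval -0.09 to 0.17, limma adjusted p = 0.60). ELOVL6 was at 7 to 18 reads per library in low and 6 to 31 in high glucose, and its 95% interval of -0.78 to 0.94 on the log2 scale was too wide to show a change with so few reads. The 5 rises kept their direction and stayed past the threshold under all 20 alternative settings run for each of them.

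In MDA-MB-231, high glucose moved the 9 genes little: ME1 rose, ACLY and FADS2 fell slightly, and the other 6 did not pass the test. limma called 15.1% of the 14884 genes tested in this line, 5.71% as higher and 9.37% as lower. After quantile normalization that split was 1027 higher and 1114 lower, against 850 and 1395. The median log2 difference of the 9 genes was -0.019, and that of all genes tested was 0.0017. Glucose groups did not overlap for 2 of the 9 genes, ME1 and ACLY, against 18.7% of all genes tested.

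ME1, the cytosolic malic enzyme, read 600.2, 625, 598 and 619 in low-glucose MDA-MB-231 and 717, 711, 709.6 and 724 in high glucose. The 4 high-glucose libraries lay close together and above all 4 low-glucose libraries. The ratio of means was 1.17 and the log2 difference 0.23 ± 0.044 (SE; limma adjusted p = 0.0016), past the threshold in all 20 alternative settings. ACLY read 18778, 17938, 18809 and 17972 in low and 17456, 16760.0, 17232 and 17442 in high glucose. Its values fell by 0.09 on the log2 scale, with an SE of 0.027 (limma adjusted p = 0.028). FADS2 went from 17758 ± 634 to 16392 ± 563 (SD, n = 4) with ranges that touched, and fell by 0.12 on the log2 scale (SE 0.032, limma adjusted p = 0.020). These falls were less firm than the rise of ME1, since ACLY lost its call in 9 of 20 settings and FADS2 in 6 of 20. Only ME1 was called without low-glucose replicate 1 or 3 or high-glucose replicate 2 or 3, which left 1 gene of the 9, while 5 were called without low-glucose replicate 4.

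The remaining genes of MDA-MB-231 did not separate by glucose. FASN read 63948, 57667, 64791 and 56758 in low glucose and 59646, 54366, 54187 and 59214 in high glucose. The ranges overlapped, and the log2 difference was -0.096 with a 95% interval of -0.19 to -0.0039 (limma adjusted p = 0.16). SCD averaged 79267 ± 1389 and 80159 ± 714, with a 95% interval of -0.04 to 0.07 on the log2 scale. ACSS2, at 5756 ± 171 and 5585 ± 121, had an interval of -0.11 to 0.02. FADS1, at 10439 ± 335 and 10302 ± 175, had an interval of -0.08 to 0.04. The intervals of SCD, ACSS2 and FADS1 include 0, while that of FASN lies just below it. FASN was called lower in 2 of 20 alternative settings, after quantile normalization (adjusted p = 0.042) and without low-glucose replicate 4 (adjusted p = 0.031). ELOVL6 was abundant here, at 2269 ± 67.1 and 2407 ± 78.9, with a log2 difference of 0.08 (limma adjusted p = 0.13). Its 95% interval of 0.0099 to 0.16 lay just above 0, though the ranges overlapped. ELOVL6 was called higher in 3 of 20 alternative settings. These were a length correction without or with the replicate block (limma adjusted p of 0.019 and 0.046), and leaving out low-glucose replicate 4 (limma adjusted p = 0.039). ACACB, at 144 ± 10.6 and 149.7 ± 26.2, was too variable for a close bound, with an interval of -0.20 to 0.28.

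**Figure D2:**
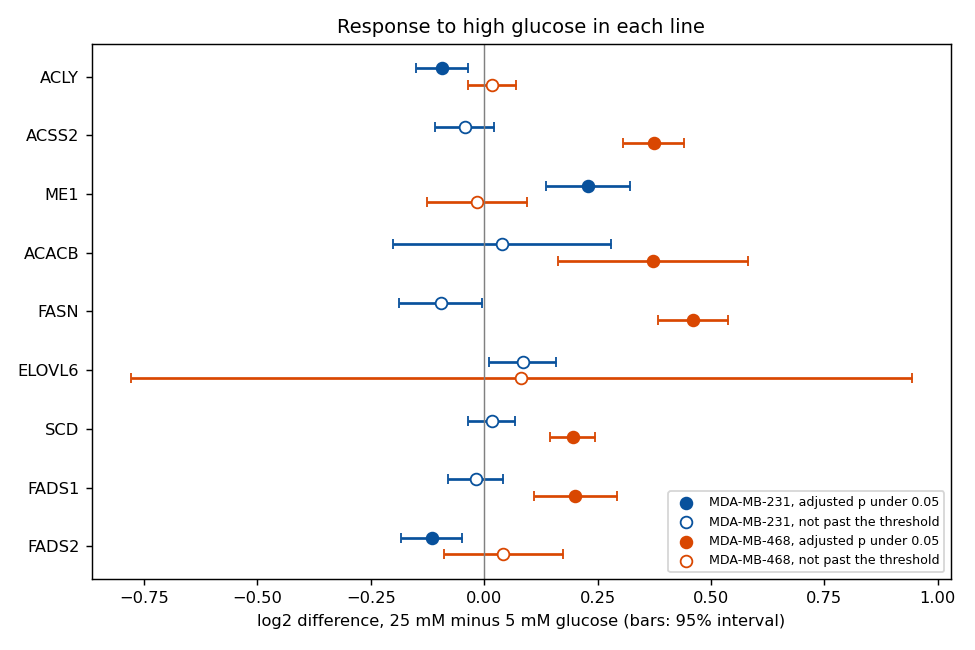
log2 difference between 25 and 5 mM glucose for each of the 9 genes, MDA-MB-231 in blue and MDA-MB-468 in orange, with 95% intervals from limma as bars and filled points where the adjusted p was under 0.05. FASN (0.46), ACSS2 (0.37), ACACB (0.37), FADS1 (0.20) and SCD (0.19) lie to the right of 0 in MDA-MB-468, and ME1 (0.23) does in MDA-MB-231.

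Whether the lines differed in their response was tested directly, as the response of MDA-MB-468 minus that of MDA-MB-231, with limma fitted to all 16 samples and their 4 groups. It uses the same libraries as the comparisons above. The response differed for 6 of the 9 genes, higher in MDA-MB-468 for 5 and lower for 1, where limma called 30.9% of all 17115 genes, 17.0% as higher and 13.9% as lower. The median difference was 0.18 over the 9 genes and -0.0036 over all genes. FASN stood furthest apart, at 0.56 ± 0.070 (SE, log2; limma adjusted p = 1.3e-05). ACSS2 followed at 0.42 ± 0.040, with a limma adjusted p of 7.5e-07. Smaller differences of the same sign were those of FADS1 (0.22 ± 0.046), SCD (0.18 ± 0.025) and ACLY (0.11 ± 0.031), with limma adjusted p of 0.0015, 4.4e-05 and 0.012. ACLY joined them through its fall in MDA-MB-231, and its difference was 0.0064 after quantile normalization. ME1 was the single gene with the opposite sign, at -0.24 ± 0.066 (SE; limma adjusted p = 0.0093). ACACB, which passed the test in MDA-MB-468 alone, was not shown to differ between lines: its difference was 0.33 with a 95% interval of -0.02 to 0.69 (limma adjusted p = 0.15). FADS2 was at 0.16 with a 95% interval of -0.0013 to 0.32 (limma adjusted p = 0.13). These differences were called higher in 2 of 27 alternative settings for ACACB and in 5 of 27 for FADS2. ELOVL6 had an interval of -0.91 to 0.90.

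The lines also differed at rest. In low glucose 7 of the 9 genes were lower in MDA-MB-468 than in MDA-MB-231 and 1, ME1, was higher, where limma called 85.4% of all genes, 40.4% as lower and 45.0% as higher. In high glucose 7 were lower and 2, ME1 and ACACB, were higher, where limma called 85.2% of all genes, 40.6% as lower and 44.6% as higher. With so many genes called, the sizes say more than the counts, and 3 genes stood apart by size. These contrasts reuse the libraries of the glucose comparisons. The median log2 difference between lines over all genes was 0.08 in low and 0.07 in high glucose, and a correction for transcript length moved it to -0.06 and -0.05.

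ELOVL6, the elongase of palmitate, differed most. In low glucose it read 2214, 2279, 2224 and 2361 in MDA-MB-231 and 10.3, 17.7, 15.8 and 6.29 in MDA-MB-468. The ratio of means was 181-fold in low and 173-fold in high glucose, and the log2 difference -7.49 ± 0.30 (SE) in both, with limma adjusted p of 1.3e-13 in each. At 6 to 31 reads the values of MDA-MB-468 exceeded the floor of 3 reads, but their size rests on few reads. FADS2 came next, with 18364, 17660, 18097 and 16912 in low-glucose MDA-MB-231 and a mean of 632 ± 45.2 (SD, n = 4) in low-glucose MDA-MB-468. It was 28.1-fold lower in MDA-MB-468 in low and 25.2-fold lower in high glucose. FADS1 was 11.4-fold lower in low and 9.78-fold lower in high glucose, at 10412, 10105, 10337 and 10901 in low-glucose MDA-MB-231. For all 3 genes the groups lay far apart. The neighbours FADS1 and FADS2 lie on opposite strands of chromosome 11 and share 490 exonic bases in the annotation, and FADS2 shares 49 with FEN1. Whether the authors' counting used strand is not stated, so reads in those bases cannot be assigned.

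The other genes were within a factor of about 2 between lines. FASN, ACSS2, ACLY and SCD were lower in MDA-MB-468 by log2 differences of -0.78, -0.68, -0.61 and -0.42 in low glucose (limma adjusted p between 2.4e-14 and 9.6e-11). In high glucose the same genes were at -0.22, -0.26, -0.50 and -0.24 (limma adjusted p between 4.1e-13 and 5.4e-04). For FASN and ACSS2 this matches the rise in MDA-MB-468 described above, since the same values enter both. The difference of FASN in high glucose was not stable, at 0.08 after quantile normalization and -0.08 after a correction for transcript length, neither past the threshold. That of SCD in high glucose was -0.046 after quantile normalization (limma adjusted p = 0.093). ME1 was higher in MDA-MB-468, 1.83-fold in low and 1.55-fold in high glucose (limma adjusted p of 7.6e-12 and 8.3e-10). ACACB differed by 0.12 in low glucose (limma adjusted p = 0.35) and by 0.45 in high glucose (limma adjusted p = 0.0019), and the ranges overlapped in both.

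Levels can be compared between genes only per length, so CPM were divided by the length of the canonical transcript in kb. In low-glucose MDA-MB-231 the order was SCD at 872 ± 18.1 CPM per kb (SD, n = 4), FASN at 414 ± 25.8, FADS2 at 331 ± 9.96, ACLY at 247 ± 4.98, FADS1 at 138 ± 4.78, ACSS2 at 115 ± 3.16, ELOVL6 at 19.9 ± 0.707, ME1 at 10.5 ± 0.299 and ACACB at 0.889 ± 0.0686. No neighbours in this order had overlapping ranges, and the order was the same in high glucose. SCD ranked 47th among 17418 genes with a length. In low-glucose MDA-MB-468 the order was SCD at 719 ± 7.49 CPM per kb, FASN at 266 ± 14.1, ACLY at 178 ± 2.32, ACSS2 at 79.2 ± 2.85, ME1 at 21.3 ± 1.238, FADS1 at 13.3 ± 0.221, FADS2 at 13.0 ± 0.944, ACACB at 1.06 ± 0.0501 and ELOVL6 at 0.121 ± 0.04995. SCD and FASN thus led in both lines, while FADS2 ranked 3 of 9 in MDA-MB-231 and 7 of 9 in MDA-MB-468. FADS1 and FADS2 had overlapping ranges in MDA-MB-468, in low and in high glucose, and no other neighbours did.

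**Figure D3:**
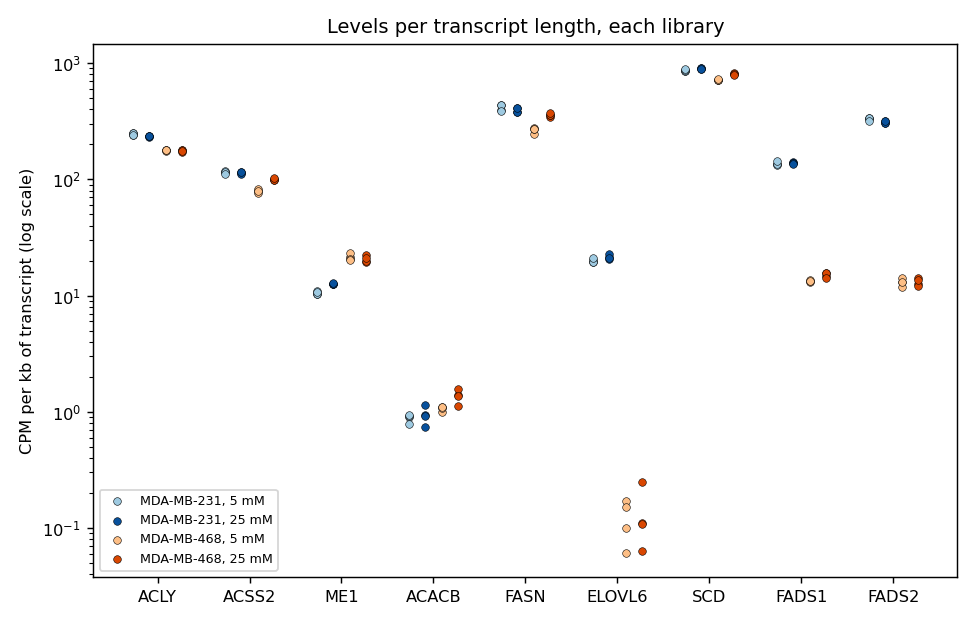
Level of each of the 9 genes in CPM per kb of canonical transcript, on a log axis, with a point for each of the 4 libraries of each group. SCD is highest in every group, at 872 in low-glucose MDA-MB-231, and ELOVL6 lies at 0.121 in low-glucose MDA-MB-468.

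Ratios of genes within a library do not depend on its size factor, and they are given as a description. Per length, FASN stood at 1.496 ± 0.0610 times ACLY in low-glucose MDA-MB-468 and 2.03 ± 0.0762 in high glucose (SD, n = 4), with no overlap. In MDA-MB-231 this ratio was 1.68 ± 0.0713 and 1.67 ± 0.0655. ACSS2 per ACLY went from 0.445 ± 0.0125 to 0.570 ± 0.0174 in MDA-MB-468, again without overlap, and from 0.466 ± 0.0151 to 0.483 ± 0.0161 in MDA-MB-231, where ranges overlapped. SCD per FASN moved the other way in MDA-MB-468, from 2.71 ± 0.164 to 2.25 ± 0.105. FASN and ACSS2 thus gained on ACLY, and FASN on SCD, within the libraries of MDA-MB-468. FADS2 per FADS1 was 2.40 ± 0.143 in low-glucose MDA-MB-231 and 0.974 ± 0.0647 in low-glucose MDA-MB-468.

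The regulators were read next. SREBF1, which encodes SREBP-1, averaged 4388 ± 233 in low and 4529 ± 154 in high glucose in MDA-MB-231, and 4801 ± 249.99 and 5010.2 ± 237 in MDA-MB-468. Its log2 differences of 0.05 and 0.06 did not pass the test (limma adjusted p of 0.48 and 0.22), although the latter did after a correction for transcript length, at 0.10 (adjusted p = 0.038). SREBF2, which encodes SREBP-2, fell in both lines without overlap, by 0.13 on the log2 scale in MDA-MB-231 (limma adjusted p = 0.018) and by 0.19 in MDA-MB-468 (limma adjusted p = 1.6e-05). The call in MDA-MB-231 was lost in 6 of 20 alternative settings: after quantile normalization, with a length correction and the replicate block, and without low-glucose replicate 1 or 3 or high-glucose replicate 2 or 3. The difference between these responses was -0.06 (limma adjusted p = 0.28), and after quantile normalization it was -0.17 (adjusted p = 0.0044). MLXIPL was scarce, at 22 to 52 reads per library. In MDA-MB-468 it went from 24.3 ± 1.20 to 41.3 ± 7.97 normalized counts without overlap, a log2 difference of 0.73 (limma adjusted p = 0.0049). In MDA-MB-231 it went from 33.4 ± 2.86 to 31.8 ± 7.93 with overlap (limma adjusted p = 0.81). The responses differed by 0.83 (limma adjusted p = 0.021).

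Across 8 lists of related genes, 119 of 122 listed genes were found. In MDA-MB-231, limma tested 109 and called 15 as higher and 15 as lower, and in MDA-MB-468 it tested 112 and called 45 as higher and 19 as lower. These were 27.5% and 57.1% of the list genes tested, where the background over all genes was 15.1% and 47.6%, and each list is read against those shares. Of the regulators, 3 of 21 tested rose and 2 fell in MDA-MB-231 (23.8% called), and 9 of 22 rose and 3 fell in MDA-MB-468 (54.5% called, near the 47.6% of all genes). INSIG1, which retains SREBP in the endoplasmic reticulum and is itself an SREBP target, fell by 0.15 on the log2 scale in MDA-MB-231 and rose by 0.13 in MDA-MB-468. The liver X receptor gene NR1H3 (0.31) and the carboxylase activator MID1IP1 (0.18) rose in MDA-MB-231. INSIG2 rose by 0.28 in MDA-MB-468. Of the subunits of the AMP-activated kinase on the list, PRKAB2 (1.04), PRKAA2 (0.24) and PRKAG2 (0.21) rose in MDA-MB-468, PRKAG1 and PRKAB1 fell by 0.20 and 0.19, and PRKAA1 did not pass the test (0.09, limma adjusted p = 0.073). The call of PRKAB1 was lost in 8 of 20 alternative settings: with DESeq2 (adjusted p = 0.093), with no filter on low values, and without low-glucose replicate 1, 2 or 4 or high-glucose replicate 1, 2 or 3.

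The sterol genes, a neighbouring SREBP program, split by line. None of the 14 rose in MDA-MB-231 and 6 fell, with a median log2 difference of -0.09, while 8 rose and 3 fell in MDA-MB-468, with a median of 0.10. The falls made up 42.9% of the list in MDA-MB-231, against 9.37% of all genes, and in MDA-MB-468 the rises made up 57.1%, against 24.9%, and the falls 21.4%, against 22.7%. HMGCS1, which condenses acetyl-CoA units for the mevalonate pathway, averaged 7297 ± 299 and 6241 ± 83.3 in MDA-MB-231 and 11339 ± 270.3 and 15286 ± 275 in MDA-MB-468 (SD, n = 4). It fell by 0.22 on the log2 scale in MDA-MB-231 and rose by 0.43 in MDA-MB-468, a difference in response of 0.66 (limma adjusted p = 3.3e-09). Not all sterol genes moved together in MDA-MB-468: FDPS, the farnesyl diphosphate synthase, fell by 0.40, and STARD4, a sterol carrier, fell by 0.33.

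Of the other elongation and desaturation genes, none of 10 rose and 3 fell in MDA-MB-231, and 3 of 14 rose and 3 fell in MDA-MB-468. The share called was 30% in MDA-MB-231, against 15.1% of all genes. In MDA-MB-468 it was 42.9%, no higher than the 47.6% of all genes. SCD5, a second stearoyl-CoA desaturase, fell by 0.19 in MDA-MB-231 and fell by 0.24 in MDA-MB-468. ELOVL5, an elongase of polyunsaturated chains, fell by 0.18 in MDA-MB-231. In MDA-MB-468, ELOVL1 (0.15) and the reductase TECR (0.12) rose, and the dehydratase HACD3 fell by 0.31. Of the carbon and NADPH suppliers, 2 of 15 rose and none fell in MDA-MB-231, ACSS3 (0.17) and IDH1 (0.16), and 7 of 14 rose and 3 fell in MDA-MB-468. These were 13.3% and 71.4% of the list, against 15.1% and 47.6% of all genes. In MDA-MB-468, ACSS1, the mitochondrial acetyl-CoA synthetase, rose by 0.34, a call lost in 7 of 20 alternative settings: with DESeq2 (adjusted p = 0.082), with no filter on low values, and without low-glucose replicate 2 or 3 or high-glucose replicate 1, 2 or 4. The mitochondrial malic enzyme ME3 fell by 0.43, and the pyruvate carrier subunit MPC1 fell by 0.37.

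Of the activation and esterification genes, 5 of 18 rose and 3 fell in MDA-MB-231, and 7 of 17 rose and 3 fell in MDA-MB-468. These were 44.4% and 58.8% of the list, against 15.1% and 47.6% of all genes. PLIN2, the coat protein of lipid droplets, went from 1519 ± 27.5 to 1930 ± 23.96 normalized counts in MDA-MB-231 (SD, n = 4), a log2 difference of 0.34 (limma adjusted p = 1.5e-06). In MDA-MB-468 it went from 912 ± 28.9 to 982 ± 74.4 with overlap (limma adjusted p = 0.10), and the responses differed by -0.24 (limma adjusted p = 0.0049). GPAM, the mitochondrial enzyme of the first acylation of glycerol phosphate, fell by 0.62 in MDA-MB-468 and rose by 0.26 in MDA-MB-231. The lipins LPIN3 (0.33, MDA-MB-231) and LPIN2 (0.34, MDA-MB-468), which make diacylglycerol, rose. ACSL4 fell by 0.16 in MDA-MB-231 and AGPAT5 fell by 0.29 in MDA-MB-468, while AGPAT3 fell by 0.15 in the former line and rose by 0.26 in the latter.

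Of the uptake and binding genes, 3 of 7 rose and none fell in MDA-MB-231, and 4 of 7 rose and 1 fell in MDA-MB-468. With 7 genes, these were 42.9% and 71.4%, against 15.1% and 47.6% of all genes. The lipoprotein receptor VLDLR rose by 0.31 in MDA-MB-231, and the transporters SLC27A4 and SLC27A2 rose by 0.47 and 0.45 in MDA-MB-468. SLC27A1 rose by 0.24 in MDA-MB-231 and fell by 0.24 in MDA-MB-468. Of 17 oxidation genes, 2 rose and 1 fell in MDA-MB-231, and 4 rose and 2 fell in MDA-MB-468. The shares called, 17.6% and 35.3%, were near and below the 15.1% and 47.6% of all genes. The carnitine palmitoyltransferases CPT1B (0.41) and CPT1A (0.17), the entry step of mitochondrial oxidation, rose in MDA-MB-231, and HADH fell by 0.19. In MDA-MB-468, the dehydrogenase ACADVL rose by 0.53, while ACADSB, which acts on branched short chains, fell by 1.09 and ACAA2 fell by 0.14. ACADS rose by 0.33, a call lost in 7 of 20 alternative settings: with DESeq2 (adjusted p = 0.087), with no filter on low values, and without low-glucose replicate 1 or 4 or high-glucose replicate 2, 3 or 4. Of 7 genes of mitochondrial fatty acid synthesis, limma called 0 in MDA-MB-231, while 3 rose and 1 fell in MDA-MB-468 (57.1% called, against 47.6% of all genes). ACSF3, a malonyl-CoA synthetase of mitochondria, went from 137 ± 12.7 to 382 ± 30.7 normalized counts in MDA-MB-468 (SD, n = 4), a log2 difference of 1.48 (limma adjusted p = 7.1e-10). NDUFAB1, the mitochondrial acyl carrier protein, rose by 0.40 and CBR4 fell by 0.18.

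**Figure D4:**
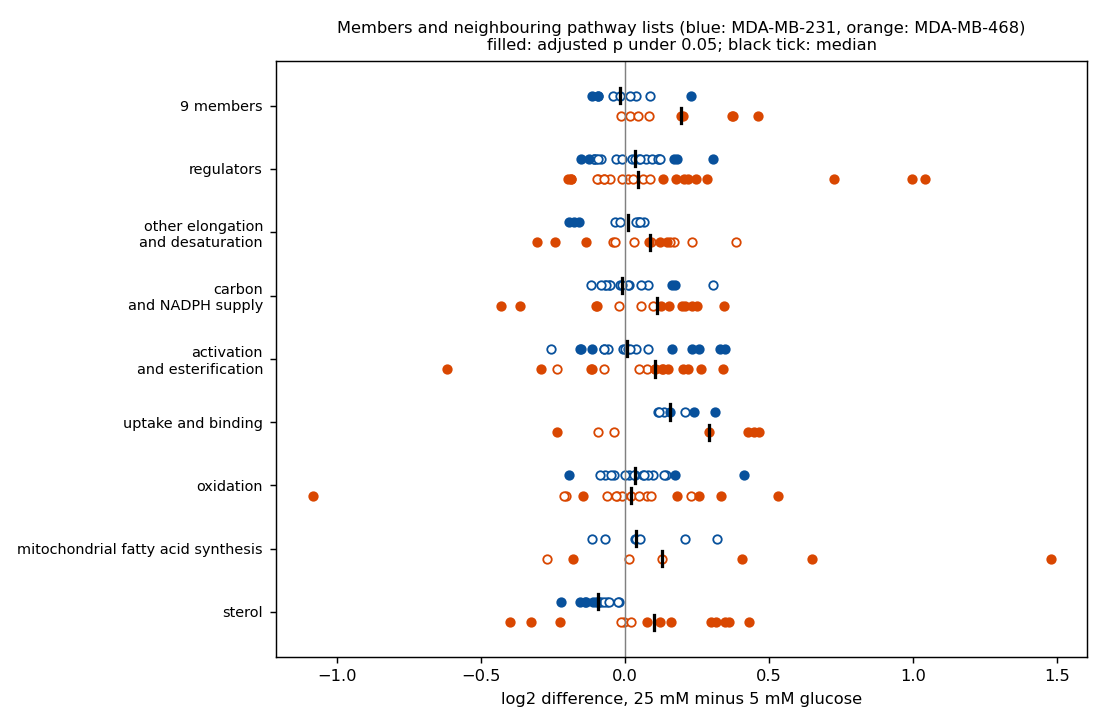
log2 difference between 25 and 5 mM glucose for the 9 genes and for each gene tested of the 8 related lists, MDA-MB-231 in blue and MDA-MB-468 in orange, with filled points where the limma adjusted p was under 0.05 and a black tick at the median. The median of the sterol genes is -0.09 in blue and 0.10 in orange, and that of the 9 genes is -0.019 and 0.19.

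Genes that followed the pattern of FASN or ACSS2, the members with the largest difference in response, were sought over the 16 samples among 9880 genes. The measure of likeness was the root mean square difference in log2(value + 1), after each gene's low-glucose mean in the same line was subtracted. Nearest to FASN were KRT19 (0.048), SERPINH1 (0.052) and THEM6 (0.053), and ACSS2 ranked 60th (0.077). Nearest to ACSS2 were EFTUD2 (0.031), IFNGR2 (0.032) and HDGF (0.036), and FASN ranked 236th. KRT19, a keratin, had log2 differences of -0.04 (MDA-MB-231) and 0.50 (MDA-MB-468), beside -0.096 and 0.46 for FASN. Such closeness follows from the search itself. The likeness is one of pattern over these samples only.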

How the data were processed

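RNA was sequenced from MDA-MB-231 and MDA-MB-468 cells (4 groups, 4 replicates each). Per the study's methods, the authors trimmed reads with Trimmomatic, aligned them with TopHat to hg19 with Ensembl release 70, and tested with DESeq2. The submitters' processing notes name hg38 and edgeR, with no version. The counting program and its use of strand are not given in the sources used here. What was deposited is a signal per gene, made by the authors from read counts through division by a size factor per library. All values were whole multiples of a step per library (100% within 0.01 reads), so whole reads were recovered.

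Gene IDs were paired with symbols (16633 of 18332) and transcript lengths (17418) through a GENCODE annotation on GRCh37. Genes with at least 0.5 CPM in 2 samples of a fit entered limma 3.58.1 under R 4.3.3 (lmFit, eBayes with trend) on log2(value + 1), two-sided, with Benjamini-Hochberg adjustment over all genes tested and a threshold of 0.05. Folds are on that scale or, where named as such, ratios of mean values. Each line was fitted alone for glucose, and a model of 4 group means over 16 samples gave the differences between lines. Fold estimates on log2(value + 1) understate changes of low genes. In simulated counts with 200 altered genes (log2 change of 1), the fit found 200 of them in each glucose comparison and in both line comparisons, and 192 for the difference in response. It made 10 to 12 false calls per comparison. The altered genes were drawn from well-covered genes, with a fixed spread between replicates. The glucose differences of the members are smaller than this change, so how well such differences are found was not tested.

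The members, the lists and the tests were chosen with earlier results of these data known. All members are named. From each list, up to 2 rises and 2 falls per line past the threshold and with at least 5 CPM in the higher group are named, with SREBF1, SREBF2 and MLXIPL in any case. Some list genes that this rule would name are counted in their lists and not reported here by name. INSIG1, PRKAA1, PRKAA2 and PRKAG2 in MDA-MB-468, GPAM in MDA-MB-231, PLIN2 in MDA-MB-468 and the list genes named with the differences between lines were added after their values were seen. Replicate numbers named samples and did not pair them. Alternatives were other pseudocounts, filters and scalings, a replicate block, a length correction, all 16 samples in 1 model, edgeR 4.0.16 and DESeq2 1.42.0 on the recovered reads, and leaving out each replicate.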

Additional observations from a re-analysis of the deposited data

Results flagged for a closer look

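Among 36 groups of 4 libraries, 2 had a library far from the other 3, where about 1 in 20 groups is flagged by chance. ACACB stood at 129 normalized counts in replicate 3 of low-glucose MDA-MB-231, below the 148 to 151 of the others. FADS1 stood at 10561 in replicate 1 of high-glucose MDA-MB-231, above the others.

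The response to glucose differed between the lines for 6 members, as MDA-MB-468 minus MDA-MB-231 on the log2 scale: FASN (0.56), ACSS2 (0.42), FADS1 (0.22), SCD (0.18), ACLY (0.11) and ME1 (-0.24). Of SREBF1, SREBF2 and MLXIPL it differed for MLXIPL (0.83), and over the 22 regulators limma called 6 differences as higher and 5 as lower. These were 27.3% and 22.7% of the regulators, against 17.0% and 13.9% of all genes. A further 8 of the list genes reported here passed the limma threshold in both lines in opposite directions, and their differences in response passed it as well. Of these, 5 fell in MDA-MB-231 and rose in MDA-MB-468: HMGCS1 (0.66), AGPAT3 (0.42), INSIG1 (0.28), TECR (0.28) and DHCR7 (0.21). The other 3 rose in MDA-MB-231 and fell in MDA-MB-468: GPAM (-0.87), SLC27A1 (-0.47) and IDH1 (-0.26). How many of all genes met this rule was not counted, so these 8 are a description only. The rise of DHCR7 in MDA-MB-468 lost its call in 12 of 20 alternative settings and turned its direction in 1, after quantile normalization, where its difference in response lost its call too (adjusted p = 0.12). That rise lost its call without low-glucose replicate 2 or 4 or high-glucose replicate 1, 3 or 4. The fall of TECR in MDA-MB-231 lost its call in 6 of 20 settings, after quantile normalization and without low-glucose replicate 1, 2 or 3 or high-glucose replicate 2 or 3, and its rise in MDA-MB-468 in 2 of 20, after quantile normalization and with all 16 samples in 1 model. The fall of AGPAT3 in MDA-MB-231 lost its call in 1 of 20, with a length correction and the replicate block.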

How the results depend on the processing

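In MDA-MB-468 and in the comparisons between lines, every alternative left the number of member genes called within 1.5 times that reported. In MDA-MB-231, 3 were called, and leaving out each replicate gave 1 to 5. With the replicate number as a block, 2 members were called in MDA-MB-231, 5 in MDA-MB-468, 7 for the difference in response, 8 between lines in low and 9 in high glucose. ACLY in MDA-MB-231 lost its call under this block (adjusted p = 0.053), and FADS2 gained one for the difference in response (adjusted p = 0.032). Same-numbered samples deviated from their group means with correlations of -0.105 to 0.0668 across genes, so the numbers gave no pairing. Quantile normalization turned 8 differences, that of ELOVL6 below and ACSS2 (0.0030) and FADS1 (0.028) in MDA-MB-231, ACLY (-0.013) and DHCR7 (-0.034) in MDA-MB-468, SREBF1 in the difference in response (-0.073), ACACB between lines in low glucose (-0.0090) and FASN between lines in high glucose (0.083). The difference in response of ELOVL6, near 0, was 0.11 after quantile normalization, 0.03 with a length correction with or without the block, 0.18 with edgeR and 0.19 with DESeq2. Leaving out single replicates gave ranges that crossed 0 for ACACB (-0.062 to 0.14), FADS1 (-0.03 to 0.0023) and MLXIPL (-0.22 to 0.071) in MDA-MB-231, for ELOVL6 (-0.26 to 0.36), FADS2 (-0.00054 to 0.083) and ME1 (-0.054 to 0.025) in MDA-MB-468, and for ELOVL6 (-0.34 to 0.27) and SREBF1 (-0.016 to 0.05) in the difference in response. None of these was past the threshold in the fit reported, apart from DHCR7 and FASN. The causes were not tested. Of 1088 alternative values of single members, 1030 kept direction and side of the threshold, 19 lost a call, 12 gained one and 27 turned direction. For the named list genes, a check added after seeing the data, these numbers were 1476, 1408, 59, 3 and 6. Beside the list genes whose lost calls are given above, ACSS3 and NR1H3 lost theirs in 2 of 20 settings, and CPT1A, HADH and SCD5 in 1 of 20, in MDA-MB-231, and ACAA2 and SLC27A2 in 1 of 20 in MDA-MB-468. Counts of list genes called ranged from 13 to 16 higher and 9 to 18 lower in MDA-MB-231, and from 38 to 47 and 18 to 22 in MDA-MB-468. Depth limits ELOVL6 in MDA-MB-468, MLXIPL and ACACB.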
